A study of Homo sapiens with 24 samples.

Results

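Late effects of ruxolitinib, an inhibitor of the kinases JAK1 and JAK2, were measured in HEL cells by RNA sequencing after 48 h. The comparison rests on the 2 libraries of cells treated with ruxolitinib at 500 nM for 48 h and the 2 libraries of cells given the solvent DMSO for 48 h, chosen by these labels, 4 of 24 libraries in all. HEL is an established human erythroleukaemia line, and every library of the series came from it, so an activating JAK2 mutation that the line is known to carry is shared by treated and control cells. Further groups of 2 libraries are used below where named: ruxolitinib and DMSO after 4 h, and momelotinib, fedratinib, pacritinib and itacitinib, each at 500 nM for 48 h. The labels do not say whether the 2 libraries of a group came from separate cultures, so p-values cover no more than the variation from library to library, which may be technical.

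JAK2 is the kinase bound to the erythropoietin receptor and to other cytokine receptors of blood cells. Once active, it phosphorylates STAT proteins, which enter the nucleus and bind palindromic sites of the form TTCNNNGAA, and it also feeds the RAS-ERK and PI3K pathways. The STATs induce feedback inhibitors of the SOCS family and survival genes, and ERK induces its own phosphatases and ETS transcription factors. In an erythroleukaemia line the cells are held at an immature stage that carries markers of the erythroid, megakaryocytic and myeloid lineages at once.

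Total counts were 35828073 and 33484457 in the ruxolitinib libraries and 36232962 and 36251895 in the DMSO libraries at 48 h, within the range of all 24 libraries (32153866 to 56618281). All 14 markers taken to define HEL cells were expressed, among them GATA1, at 222 and 234 CPM with ruxolitinib and 204 and 208 CPM with DMSO. CPM here are counts scaled to the total of their library after multiplying that total by the library's TMM factor. At 48 h these factors were 0.9882 and 0.9944 for ruxolitinib and 1.018 and 1.022 for DMSO. Shares given in percent of counts use totals without this factor. Of 16 markers of lymphoid cells, monocytes, epithelium, fibroblasts and endothelium, 7 (among them CD3E, MS4A1, CD14, EPCAM, COL1A2 and DCN) had too few counts to be tested. In a principal component analysis of the 12 libraries at 48 h, the first component held 45.3% of the variance and placed the ruxolitinib libraries at 19.57 and 20.61, against -7.52 and -7.48 for DMSO. The other 8 libraries lay between -4.82 and -0.04 on it. In RNA from whole cultures, fewer cells of a kind and less RNA per cell cannot be told apart.

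After 48 h, 4137 of 16076 tested genes (25.7%) differed between ruxolitinib and DMSO at an adjusted p under 0.05, the rule for a call throughout (edgeR's quasi-likelihood test, Benjamini-Hochberg adjustment over all tested genes). Of these, 2011 rose (12.5% of tested genes) and 2126 fell (13.2%). Most changes were small: the median size of a called change was 0.34 on the log2 scale, and 133 genes rose and 309 fell by 2-fold or more. The median over all tested genes was 0.01. Of the called genes, 4134 had no overlap between the 2 ruxolitinib and the 2 DMSO libraries, as had 62.0% of all tested genes. The number of calls was 2733 without ruxolitinib replicate 2, and the number higher was 1311 without that library and 1316 without DMSO replicate 2.

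**Figure D1:**
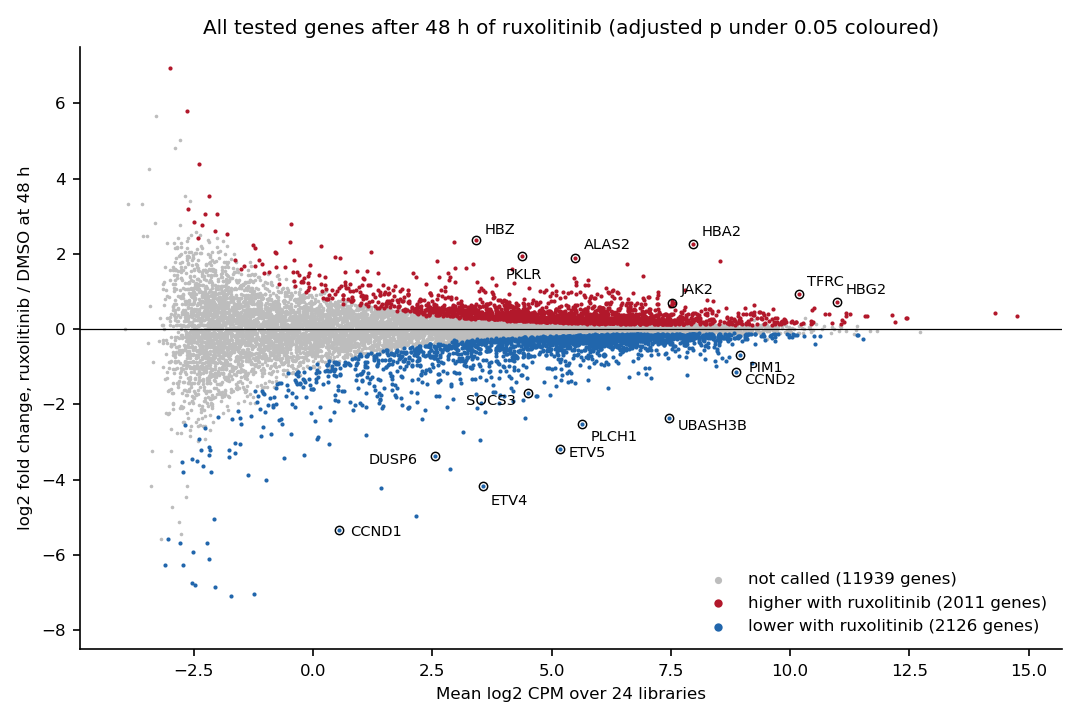
Each point is 1 tested gene, with its mean log2 CPM over 24 libraries on the x axis and its log2 fold change, ruxolitinib over DMSO at 48 h, on the y axis. Red points are the 2011 genes called higher and blue points the 2126 called lower. HBA2, HBG2 and TFRC stand out among abundant genes that rose, and ETV4, ETV5, PLCH1 and UBASH3B among those that fell.

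The well-expressed genes with the largest decreases belonged to several signalling families. ETV4, an ETS transcription factor induced by ERK, had 1.30 and 1.05 CPM with ruxolitinib and 21.6 and 21.2 CPM with DMSO (-4.18 ± 0.16, log2 fold change ± SE here and below). ETV5 of the same subfamily had 6.95 and 5.35 CPM with ruxolitinib, against 54.6 and 57.6 CPM with DMSO (-3.18 ± 0.09). Genes were chosen for this group from those whose treated and control libraries do not overlap. UBASH3B, a tyrosine phosphatase that restrains signalling from platelet and lymphocyte receptors, fell to 52.8 and 50.3 CPM with ruxolitinib, against 264 and 264 CPM with DMSO (-2.36 ± 0.06). PLCH1, a phospholipase C, fell by 2.53 ± 0.08 and IGFBP4, which binds insulin-like growth factors, by 2.95 ± 0.14. Receptors and cytokines were also in this group: IL21R (-2.19 ± 0.12), the collagen receptor GP6 (-2.36 ± 0.10), the lymphatic VEGF receptor FLT4 (-1.87 ± 0.09) and the cytokine LIF (-1.97 ± 0.16). The hypoxia-inducible factor EPAS1 fell by 1.97 ± 0.12 and the phosphate transporter SLC34A1 by 2.72 ± 0.16. BCL3, EGR1, PPP1R16B and SAMD14 completed the 15 largest decreases (-2.09 to -1.77). On the other side, 8 of the 15 largest increases were red cell genes, among them the globins HBZ, HBA2 and HBA1, the haem enzymes ALAS2 and ALAD, PKLR, and BLVRB, a biliverdin reductase abundant in red cells (1.73 ± 0.08). The other 7 were ST8SIA1, a sialyltransferase that makes gangliosides (1.74 ± 0.11), PGBD5 (1.63 ± 0.11), the platelet tubulin TUBB1 (1.60 ± 0.09), the receptor tyrosine kinase FGFR3 (1.37 ± 0.07), ITLN2, STUM and SHISA7 (1.26 to 1.36). These 30 genes were ranked by their own change, so their sizes describe the extremes.

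Erythroid genes rose together. Of 59 tested genes of this list, 48 rose and 2 fell, where 12.5% and 13.2% of all tested genes did, and the median log2 fold change was 0.49 against 0.01 over all tested genes. The 2 that fell were the transcriptional repressors GFI1B and BCL11A. Globin genes as a whole took 0.530 and 0.511% of all counts with ruxolitinib, against 0.269 and 0.267% with DMSO, a value that does not depend on how reads were shared among near-identical copies.

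Among the globins, 9 of 10 rose, and the size of the change differed between the clusters. HBA2, an alpha-globin gene on chromosome 16 (172876 to 173710, GRCh38), had 766 and 727 CPM with ruxolitinib and 159 and 152 CPM with DMSO (2.26 ± 0.10). HBA1 had 937 and 827 CPM with ruxolitinib and 249 and 250 CPM with DMSO (1.82 ± 0.10). Both genes were over 3-fold higher in each treated library than in either control library, but their coding parts are nearly identical and reads could be assigned to either copy. The embryonic gene of the same cluster, HBZ, had 34.6 and 32.4 CPM with ruxolitinib and 7.65 and 5.26 CPM with DMSO (2.37 ± 0.14). The minor members HBM (2.81 ± 0.39) and HBQ1 (1.24 ± 0.10) rose as well. HBM had few counts, at 3.28 and 2.82 CPM with ruxolitinib and 0.41 and 0.46 CPM with DMSO. In the beta cluster on chromosome 11, the foetal gene HBG2 had the most counts of the globins, at 2964 and 2958 CPM with ruxolitinib and 1798 and 1786 CPM with DMSO (0.72 ± 0.06). Its near copy HBG1 rose by 0.69 ± 0.12 and the embryonic HBE1 by 0.43 ± 0.06. The adult genes had few counts: HBB had 9.72 and 9.01 CPM with ruxolitinib and 7.22 and 6.67 CPM with DMSO (0.43 ± 0.16), and HBD did not pass (0.19 ± 0.15, adjusted p = 0.378). HBB lost its call whichever of the 4 libraries was omitted. AHSP, the chaperone of alpha-globin, had 8 and 6 counts with ruxolitinib and 0 and 0 with DMSO, too few to be tested.

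The haem synthesis pathway rose at 9 of 10 tested genes. ALAS2, the erythroid form of its first and rate-limiting enzyme, had 133 and 135 CPM with ruxolitinib and 36.3 and 35.4 CPM with DMSO (1.90 ± 0.08). ALAD, the next enzyme, had 90.8 and 89.7 CPM with ruxolitinib and 37.6 and 38.5 CPM with DMSO (1.25 ± 0.06). The changes were smaller along the rest of the pathway, at UROD (0.37 ± 0.05), CPOX (0.41 ± 0.04), PPOX (0.44 ± 0.08) and FECH (0.68 ± 0.05), which inserts the iron. UROS was not called (0.09 ± 0.05, adjusted p = 0.207). SLC25A37, the mitochondrial iron importer, rose by 0.77 ± 0.05. Genes of iron handling changed alongside: TFRC, the transferrin receptor, had 1776 and 1736 CPM with ruxolitinib and 913 and 934 CPM with DMSO (0.93 ± 0.05). SLC40A1, the iron exporter ferroportin, had 214 and 223 CPM with ruxolitinib and 117 and 115 CPM with DMSO (0.91 ± 0.05). The ferritin light chain FTL was not called (0.02 ± 0.04), and the heavy chain FTH1 rose by 0.22 ± 0.06, a call that ended without DMSO replicate 2 or without ruxolitinib replicate 1.

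Genes for the red cell membrane and its skeleton rose at 15 of 18 tested members. The erythroid beta spectrin SPTB (0.99 ± 0.05) rose, as did ADD2, beta-adducin (1.05 ± 0.06). EPB42 (0.94 ± 0.05) and the Kell protein KEL (0.70 ± 0.06) rose less, as did the Rh genes RHD (0.49 ± 0.05) and RHCE (0.56 ± 0.05). GYPB (0.71 ± 0.06) and GYPE (0.70 ± 0.05) rose too, and these genes, like the Rh pair, are near-identical in parts, and reads could be assigned to either copy. SLC4A1, the anion exchanger of mature red cells, stayed under 0.5 CPM in all 4 libraries and was not called (0.51 ± 0.66). EPB41 was not called (-0.05 ± 0.04). CA1, an erythroid carbonic anhydrase, had 907 and 885 CPM with ruxolitinib and 581 and 565 CPM with DMSO (0.64 ± 0.04).

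Most of the erythroid transcription factors changed by small amounts. GATA1 rose by 0.14 ± 0.05 and GATA2 by 0.16 ± 0.04, and both lost their call when DMSO replicate 2 or ruxolitinib replicate 2 was omitted, and GATA1 also when DMSO replicate 1 was. KLF1, the erythroid Krueppel-like factor, had 182 and 203 CPM with ruxolitinib and 134 and 134 CPM with DMSO (0.52 ± 0.05). The partners of the TAL1 complex LMO2 (0.59 ± 0.05) and LDB1 (0.43 ± 0.05) and the GATA1 cofactor ZFPM1 (0.55 ± 0.06) rose, and TAL1 itself rose by 0.18 ± 0.04. GFI1B, a repressor needed for erythroid and platelet development, had 197 and 207 CPM with ruxolitinib and 278 and 259 CPM with DMSO (-0.41 ± 0.06). BCL11A, a repressor of the foetal globin genes, had 37.9 and 38.8 CPM with ruxolitinib and 52.7 and 51.7 CPM with DMSO (-0.45 ± 0.06). MYB, a progenitor factor, was not called (0.01 ± 0.04).

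**Figure D2:**
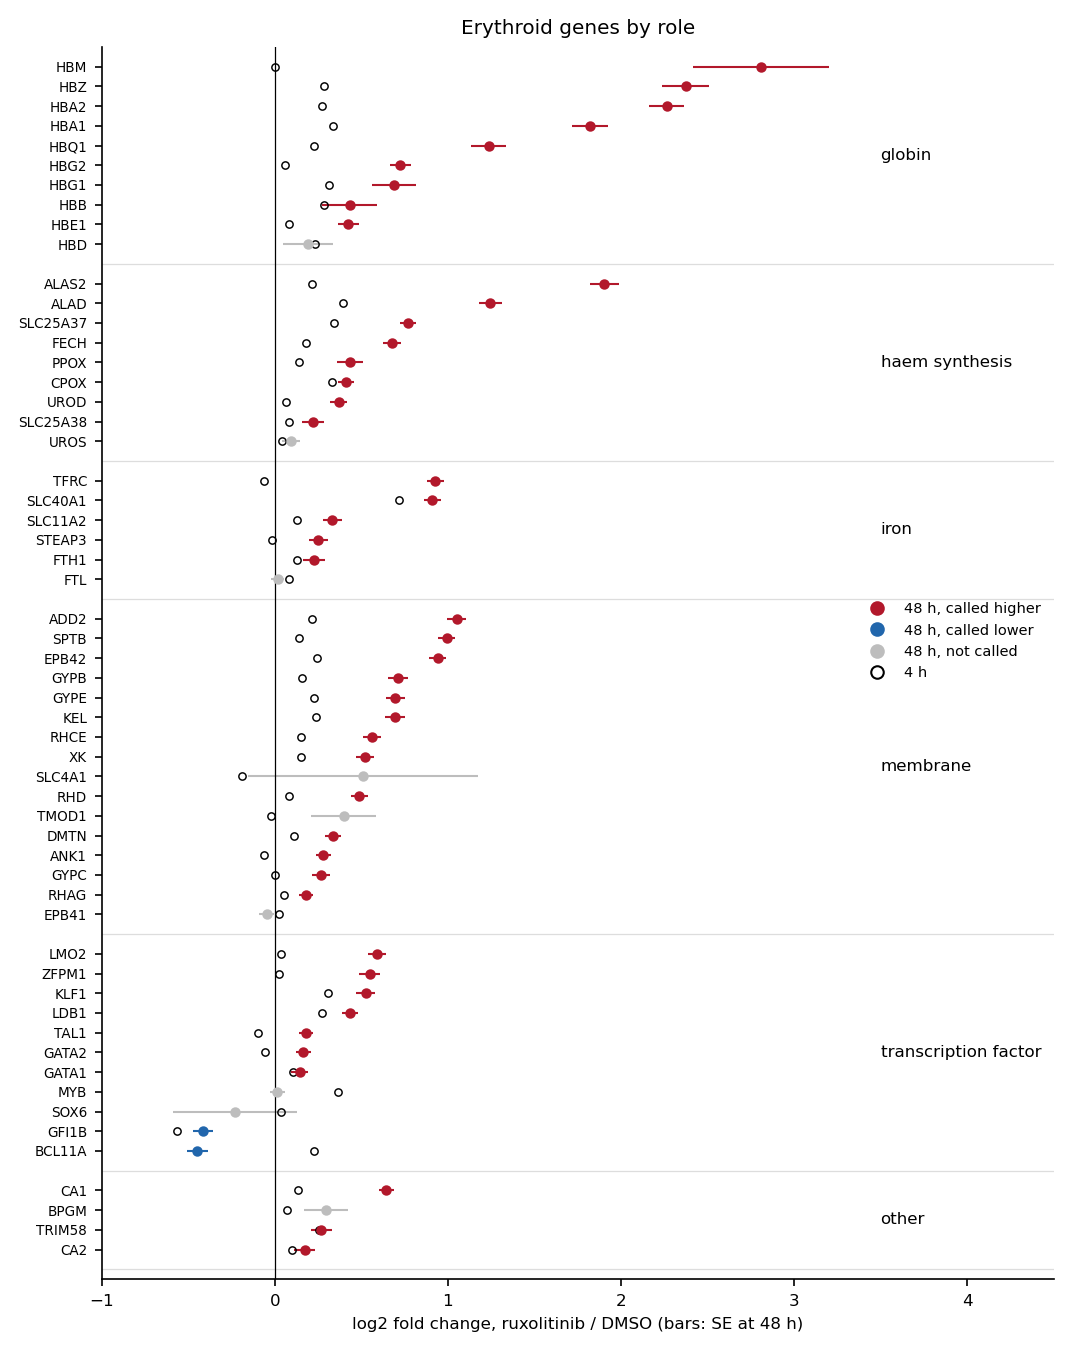
Rows are 56 of the 59 tested erythroid genes grouped by role, and the x axis is the log2 fold change of ruxolitinib over DMSO. Filled points with SE bars are the values at 48 h (red called higher, blue called lower, grey not called) and open circles those at 4 h. Most filled points lie to the right of the open ones, with HBM, HBZ, HBA2 and ALAS2 farthest out.

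Promoters of the erythroid genes were searched for AGATAA, the core sequence bound by GATA factors, on both strands, because these genes moved together. RefSeq promoters (GRCh38.p14, 250 bases before to 50 after the start) were at hand for 38 of the 60 listed genes. Of these, 11 (28.9%) held the motif, as did 10.5% of the 27305 promoters searched. The 11 were ALAS2, CPOX, EPB42, GYPB, GYPE, HBD, KEL, RHCE, RHD, SPTB and TAL1. GYPB and GYPE, like RHCE and RHD, are near-identical in parts, so their matches may not be separate occurrences. Among tested genes 5.76% of 11333 promoters held it. The share was much the same for genes that rose (5.60% of 1519) and genes that fell (5.57% of 1616). A match describes these letters and no measured binding. Shown are ALAS2 (chrX:55030928-55031227, minus strand), PKLR (chr1:155301389-155301688, minus strand) and SPTB (chr14:64879858-64880157, minus strand), 3 of the genes that rose, the first and last from the list and PKLR, the red cell pyruvate kinase, from outside it, with the match in capitals, 127, 31 and 42 bases before the start. In ALAS2 it reads on the opposite strand.
ALAS2: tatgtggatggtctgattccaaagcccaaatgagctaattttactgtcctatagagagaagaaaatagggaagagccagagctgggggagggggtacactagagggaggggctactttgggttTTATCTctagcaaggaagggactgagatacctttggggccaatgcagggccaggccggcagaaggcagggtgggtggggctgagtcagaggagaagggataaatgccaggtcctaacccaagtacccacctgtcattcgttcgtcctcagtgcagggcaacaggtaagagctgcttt
PKLR: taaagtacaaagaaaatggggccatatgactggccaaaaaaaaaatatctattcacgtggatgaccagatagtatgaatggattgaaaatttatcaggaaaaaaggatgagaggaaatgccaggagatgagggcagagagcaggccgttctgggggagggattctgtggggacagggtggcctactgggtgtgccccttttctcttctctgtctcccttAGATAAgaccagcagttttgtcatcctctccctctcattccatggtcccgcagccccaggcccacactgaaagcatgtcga
SPTB: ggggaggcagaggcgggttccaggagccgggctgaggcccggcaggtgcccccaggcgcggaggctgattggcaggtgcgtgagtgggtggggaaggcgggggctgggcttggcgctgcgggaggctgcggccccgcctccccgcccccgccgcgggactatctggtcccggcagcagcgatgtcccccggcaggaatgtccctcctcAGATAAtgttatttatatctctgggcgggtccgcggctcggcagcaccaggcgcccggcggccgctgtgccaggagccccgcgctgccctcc

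JAK-STAT targets were still low after 48 h. Of 22 tested genes of this list, 16 fell and 2 rose, where 13.2% and 12.5% of all tested genes did. The median of the list was -0.50. The 2 that rose were MYC (0.10 ± 0.04) and IRF1 (0.25 ± 0.10), and these calls did not hold: with a library left out, 0 or 1 of the list was called higher. The feedback inhibitors fell at all 4 tested members but to different depths. SOCS3 had 11.3 and 9.97 CPM with ruxolitinib and 32.6 and 36.4 CPM with DMSO (-1.69 ± 0.13). SOCS1 had 2.37 and 2.49 CPM with ruxolitinib and 9.06 and 7.50 CPM with DMSO (-1.77 ± 0.19). CISH had 36.0 and 35.0 CPM with ruxolitinib and 44.4 and 44.6 CPM with DMSO (-0.33 ± 0.08). The groups did not overlap for any of these genes, and the change of CISH was the smallest of the 3. SOCS2 fell by 0.38 ± 0.08, a call that ended without ruxolitinib replicate 2 (adjusted p = 0.0672).

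The PIM kinases, which take over growth signals downstream of STAT5, were lower at 2 of 3 genes. PIM1 had 365 and 341 CPM with ruxolitinib and 564 and 573 CPM with DMSO (-0.69 ± 0.05). PIM2 had 109 and 104 CPM with ruxolitinib and 156 and 156 CPM with DMSO (-0.55 ± 0.06), while PIM3 was not called (-0.18 ± 0.07). PIM3 was called without DMSO replicate 2 (adjusted p = 0.0166), in the fit on the 4 libraries compared (adjusted p = 0.0215) and in that on the 48 h libraries (adjusted p = 0.0348). Among transcription factors, ID1, an inhibitor of differentiation, fell to 33.2 and 35.8 CPM with ruxolitinib, against 85.1 and 90.7 CPM with DMSO (-1.35 ± 0.08). The cytokine receptor IL4R fell by 1.67 ± 0.12. The D cyclins, which drive the entry into the cell cycle, fell at 3 of 3 genes. CCND1 had 0.17 and 0.06 CPM with ruxolitinib and 5.05 and 4.62 CPM with DMSO (-5.34 ± 0.36), so it was near the limit of detection in treated cells. CCND2 had 271 and 262 CPM with ruxolitinib and 581 and 581 CPM with DMSO (-1.12 ± 0.05). CCND3, at 499 and 519 CPM with ruxolitinib and 585 and 569 CPM with DMSO, was by far the least changed (-0.18 ± 0.05), and it lost its call without DMSO replicate 1 or without ruxolitinib replicate 1.

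The STAT motif TTCNNNGAA stood in the RefSeq promoters of 3 of the 16 listed targets with a promoter at hand (CISH, BCL6 and IRF1, 18.8%). It stood in 7.88% of the 27305 promoters searched, 6.49% of 11333 for tested genes and 6.56% of 1616 for genes that fell. The 3 targets did not fall together. CISH fell, IRF1 had a call higher that did not hold, and BCL6 was near the limit of detection. BCL6 had 0.08 and 0.18 CPM with ruxolitinib and 0.05 and 0 CPM with DMSO. The promoter of SOCS3, which fell further than CISH, held no match. The motif is its own reverse complement, so 1 search covers both strands. CISH (chr3:50611725-50612024, minus strand) is shown because it held 4 matches, in capitals, 241, 230, 129 and 112 bases before the start.
CISH: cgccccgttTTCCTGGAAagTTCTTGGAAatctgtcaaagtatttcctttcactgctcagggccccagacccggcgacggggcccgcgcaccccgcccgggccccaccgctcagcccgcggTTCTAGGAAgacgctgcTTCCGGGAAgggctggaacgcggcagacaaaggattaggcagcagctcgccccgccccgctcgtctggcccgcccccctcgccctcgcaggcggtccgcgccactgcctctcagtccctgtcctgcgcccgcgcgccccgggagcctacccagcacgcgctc

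Genes of the JAK-STAT pathway itself changed in both directions, with 11 of 33 tested genes higher and 9 lower, where 12.5% and 13.2% of all tested genes were. JAK2, on chromosome 9 (4984390 to 5128183), had 276 and 286 CPM with ruxolitinib and 168 and 177 CPM with DMSO (0.70 ± 0.05). Of 14 tested receptors of the list, 5 rose, 2 fell and 7 were not called, with a median of 0.04. EPOR and CSF2RB, which signal through JAK2, were among those that rose. EPOR, the erythropoietin receptor, had 65.3 and 69.9 CPM with ruxolitinib and 34.5 and 33.2 CPM with DMSO (1.00 ± 0.07). CSF2RB, the beta chain shared by the receptors for IL-3, IL-5 and GM-CSF, rose by 0.79 ± 0.05. No treated library overlapped a control library for JAK2, EPOR or CSF2RB. STAT5A (0.31 ± 0.04), STAT5B (0.32 ± 0.04) and STAT6 (0.36 ± 0.05) rose by about the same amount. JAK3 (-0.36 ± 0.05), STAT4 (-0.57 ± 0.12), the stem cell factor receptor KIT (-0.56 ± 0.06) and the negative regulators SH2B3 (-0.67 ± 0.05) and CBL (-0.84 ± 0.07) fell. SH2B3 had 114 and 119 CPM with ruxolitinib and 183 and 186 CPM with DMSO.

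Outputs of ERK signalling fell at 14 of 18 tested genes, where 13.2% of all tested genes fell, and the other 4 were not called. The median of the list was -0.99. The ETS factors of the PEA3 family had the largest decreases, ETV4 and ETV5 as given above and ETV1 by 1.27 ± 0.28. DUSP6, the phosphatase that turns ERK off, had 1.21 and 1.26 CPM with ruxolitinib and 12.5 and 13.1 CPM with DMSO (-3.37 ± 0.15). DUSP4 (-2.40 ± 0.38) and DUSP5 (-1.33 ± 0.15) fell with it. The Sprouty-family inhibitors SPRY1 (-1.10 ± 0.19), SPRED1 (-0.89 ± 0.06) and SPRED2 (-0.53 ± 0.07) fell as well. Of the immediate early genes, EGR1 had 6.84 and 4.90 CPM with ruxolitinib and 22.6 and 21.4 CPM with DMSO (-1.90 ± 0.14). PHLDA1 (-1.28 ± 0.17), JUN (-0.51 ± 0.12), FOSL1 (-0.42 ± 0.08) and IER2 (-0.42 ± 0.06) fell by less, and FOS was not called (-0.28 ± 0.35). All 14 calls held whichever of the 4 libraries was omitted.

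**Figure D3:**
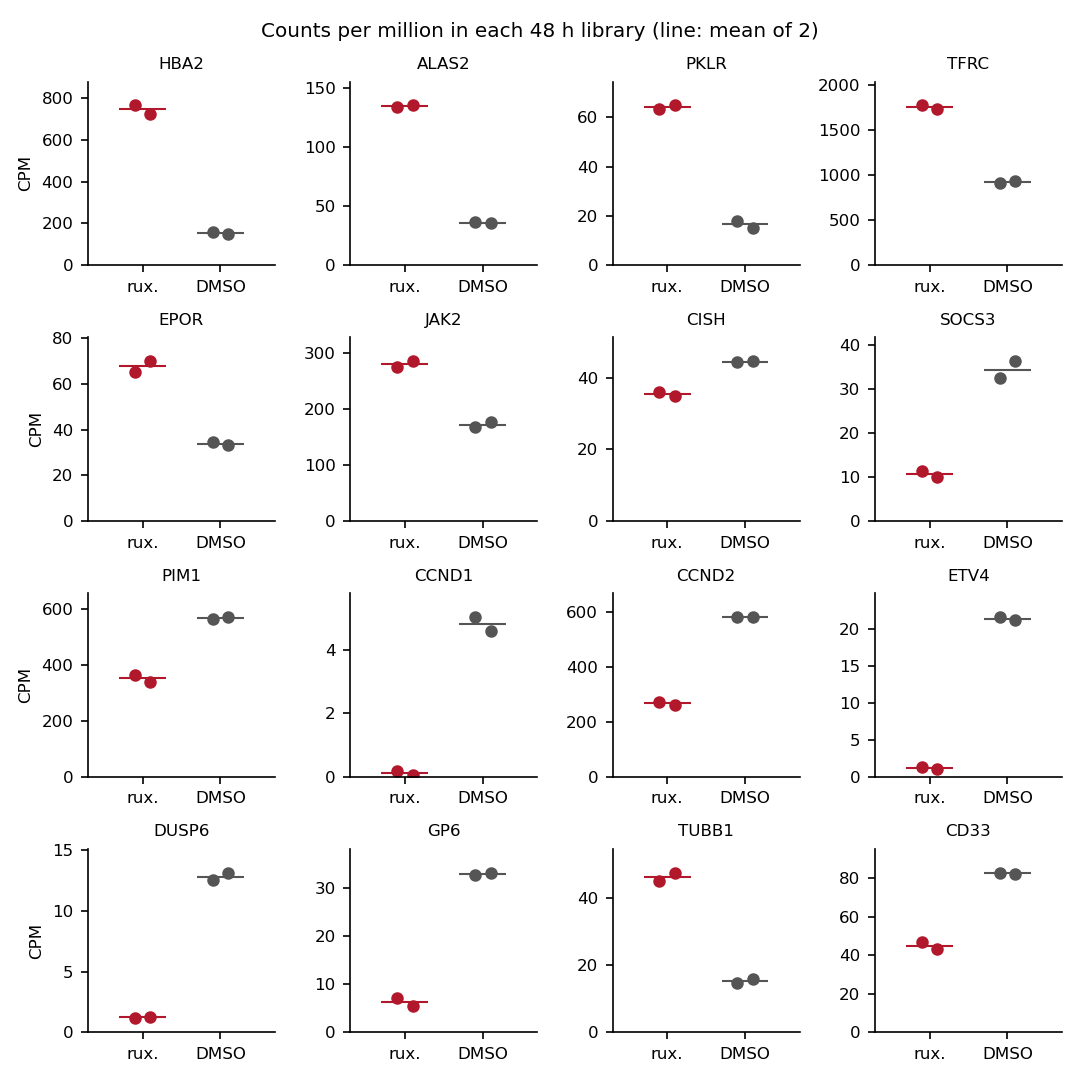
Each panel shows 1 gene, with its CPM in the 2 ruxolitinib libraries (red) left of those in the 2 DMSO libraries (grey) at 48 h and a line at the mean of each group. The replicates of a group lie close together and the groups do not overlap in any of the 16 panels. CISH differs least, and CCND1 and ETV4 are near 0 with ruxolitinib.

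Megakaryocyte and platelet genes split, with 15 of 32 tested genes lower and 6 higher, where 13.2% and 12.5% of all tested genes were. With a library left out, 10 to 12 were lower and 5 or 6 higher. The collagen receptor GP6 had 7.23 and 5.59 CPM with ruxolitinib and 32.8 and 33.3 CPM with DMSO (-2.36 ± 0.10). SELP, the adhesion receptor P-selectin, had 17.3 and 17.3 CPM with ruxolitinib and 44.6 and 47.6 CPM with DMSO (-1.41 ± 0.08). The thromboxane receptor TBXA2R (-0.96 ± 0.09) and GP1BA, a chain of the von Willebrand receptor (-0.47 ± 0.05), also fell. Granule proteins fell at 4 of 7 genes, among them THBS1 (-1.02 ± 0.09) and MMRN1 (-1.03 ± 0.08). On the other side TUBB1, the tubulin of the platelet marginal band, had 45.3 and 47.6 CPM with ruxolitinib and 14.7 and 15.9 CPM with DMSO (1.60 ± 0.09). GP9 (0.57 ± 0.07), GP5 (0.60 ± 0.10) and the transcription factor NFE2 (0.38 ± 0.04), which also serves red cells, rose. The integrin ITGA2B, the standard marker of the lineage, was not called (0.08 ± 0.04).

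Myeloid genes fell at 7 of the 10 that could be tested, where 13.2% of all tested genes fell. The granule enzymes MPO, ELANE, AZU1 and PRTN3 were under the count filter. CD33, a surface marker of myeloid progenitors, had 46.7 and 43.3 CPM with ruxolitinib and 82.7 and 82.2 CPM with DMSO (-0.87 ± 0.07). SPI1, which encodes the myeloid factor PU.1, had 73.2 and 83.4 CPM with ruxolitinib and 111 and 106 CPM with DMSO (-0.47 ± 0.06). CEBPA (-0.99 ± 0.23), CEBPD (-1.35 ± 0.23), ITGAM (-0.82 ± 0.11) and CTSG (-1.77 ± 0.27) fell as well. LYZ was not called (0.05 ± 0.06). The endothelial gene CDH5, taken as a marker of another cell type, had 3.64 and 2.85 CPM with ruxolitinib and 14.3 and 12.8 CPM with DMSO (-2.06 ± 0.15). Of the 9 tested markers of other cell types, CDH5, CD79A, NKG7 and KRT18 fell. PECAM1 rose by 0.14 ± 0.04, a call that held only without DMSO replicate 1 when a library was omitted.

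Cell cycle genes changed little beside the D cyclins, and their counts are to be read against the 12.5% of all tested genes that rose and the 13.2% that fell. Of 24 DNA replication genes, 3 rose, and GINS4 fell by 0.15 ± 0.05, a call that held only without ruxolitinib replicate 1 when a library was omitted. Of 25 mitosis genes, 5 rose and 4 fell, and 2 or 3 were higher and 1 to 3 lower with a library left out. The proliferation marker MKI67 had 535 and 511 CPM with ruxolitinib and 529 and 502 CPM with DMSO (0.02 ± 0.08), and the groups overlapped. MCM2 (0.10 ± 0.05) and CDC20 (-0.05 ± 0.05) were not called. Among regulators of entry into S phase, 6 of 16 rose, and 3 did without DMSO replicate 2. They included CDKN1B, the inhibitor p27, with 53.2 and 49.8 CPM under ruxolitinib and 39.6 and 36.2 CPM under DMSO (0.44 ± 0.07), and the transcription factor E2F2 (0.39 ± 0.05). RRM2, a subunit of ribonucleotide reductase, rose by 0.31 ± 0.04. MYC had 785 and 799 CPM with ruxolitinib and 748 and 726 CPM with DMSO, and this call was lost whichever of the 4 libraries was omitted (adjusted p = 0.0837 to 0.32). Its antagonist MXD4 rose by 0.90 ± 0.14 and MYCN fell by 0.89 ± 0.17.

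Metabolic genes mostly fell, by small amounts, and the counts here stand beside 12.5% of all tested genes higher and 13.2% lower. Of 23 glycolysis genes, 13 fell and 4 rose, with 2 higher without DMSO replicate 2 or without ruxolitinib replicate 2. PKLR changed by far the most. This gene, PKLR, encodes the pyruvate kinase of red cells and liver and had 63.3 and 64.9 CPM with ruxolitinib and 18.0 and 15.2 CPM with DMSO (1.95 ± 0.09). PKM, which encodes the pyruvate kinase of most other cells, had 1340 and 1336 CPM with ruxolitinib and 1527 and 1499 CPM with DMSO (-0.18 ± 0.04). The glucose transporter SLC2A3 had 65.9 and 65.2 CPM with ruxolitinib and 148 and 153 CPM with DMSO (-1.20 ± 0.06), whereas SLC2A1 rose by 0.17 ± 0.05, a call lost without DMSO replicate 2 or without ruxolitinib replicate 2. The neuronal-type enolase ENO2 fell by 0.70 ± 0.09, LDHA by 0.40 ± 0.04, and the liver-type phosphofructokinase PFKL rose by 0.40 ± 0.06.

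Among genes for lipid synthesis more were lower than higher. All counts of this paragraph are to be read against 12.5% of all tested genes higher and 13.2% lower. Of 8 fatty acid synthesis genes, 5 fell, among them the desaturase SCD, with 244 and 249 CPM with ruxolitinib and 388 and 397 CPM with DMSO (-0.67 ± 0.05), the regulator SREBF1 (-0.43 ± 0.06) and FASN (-0.39 ± 0.08). Of 23 cholesterol genes, 14 fell, 8 of 23 without ruxolitinib replicate 2, and TM7SF2 rose (0.29 ± 0.09), a call that held only without ruxolitinib replicate 1 when a library was omitted. Those that fell included DHCR7 (-0.65 ± 0.06), INSIG1 (-0.66 ± 0.06) and SQLE (-0.35 ± 0.05). The median of the cholesterol list was -0.20, and it was -0.18, -0.20, -0.22 and -0.16 for fedratinib, momelotinib, pacritinib and itacitinib against the same DMSO libraries. Genes of the ATF4 response, which serve amino acid supply, fell at 10 of 22. PSAT1 (-0.52 ± 0.07) and PHGDH (-0.44 ± 0.08) of serine synthesis, TRIB3 (-0.59 ± 0.08) and DDIT4 (-1.09 ± 0.15) were among them, while ATF4 itself was not called (0.01 ± 0.05). Ribosome biogenesis genes fell at 17 of 26 (median -0.19), among them RRP12 (-0.50 ± 0.06) and DDX21 (-0.42 ± 0.05), and 9 of the 26 were lower without DMSO replicate 1. Lysosome genes rose at 8 of 23 and fell at 2. Without ruxolitinib replicate 2, 4 were higher, and without DMSO replicate 2, 5. The number lower was 1 with any of the 4 libraries left out. CTSZ, a cathepsin, rose by 0.52 ± 0.06.

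In the BCL2 family, which decides over cell death, 4 of 17 genes rose and 4 fell, where 12.5% and 13.2% of all tested genes did. The survival genes BCL2 (-0.64 ± 0.11), BCL2L1 (-0.46 ± 0.04) and MCL1 (-0.26 ± 0.05) fell, and BCL2L2 of the same class rose (0.25 ± 0.09), a call that was lost by DESeq2 (adjusted p = 0.0563) and, of the fits with a library omitted, held only without DMSO replicate 1. BCL2L1, which encodes BCL-XL, had 159 and 154 CPM with ruxolitinib and 212 and 218 CPM with DMSO. Of 9 killer genes of the BH3-only class, BBC3 (0.48 ± 0.11), BCL2L11 (0.25 ± 0.06) and BNIP3L (0.51 ± 0.05) rose, BID fell (-0.23 ± 0.06) and 5 were not called. The call of BID was lost without ruxolitinib replicate 2 (adjusted p = 0.15). BNIP3L, which also clears mitochondria from maturing red cells, had 138 and 134 CPM with ruxolitinib and 93.6 and 97.5 CPM with DMSO. The effectors BAX (0.01 ± 0.06) and BAK1 (-0.21 ± 0.09) were not called. Among targets of BMP-SMAD signalling, ID3 (-1.31 ± 0.12) and ID2 (-0.82 ± 0.11) fell beside ID1, and the inhibitor SMAD6 rose (0.38 ± 0.06).

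Immune genes did not move as 1 group. Of 26 interferon-stimulated genes, 4 rose and 6 fell, where 12.5% and 13.2% of all tested genes did. The number higher was 1 without ruxolitinib replicate 2, and 2 without ruxolitinib replicate 1 or without DMSO replicate 2. IFIT2, with 7.80 and 8.14 CPM under ruxolitinib and 3.42 and 2.67 CPM under DMSO, rose by 1.39 ± 0.18. IFITM1 (-0.98 ± 0.11), IFITM2 (-0.72 ± 0.06) and IFITM3 (-0.69 ± 0.07) fell, with the reservation that the 3 genes are similar in sequence. Of 15 genes of MHC class I presentation, 5 rose, and HLA-E fell by 0.20 ± 0.06, a call lost without DMSO replicate 1 and without ruxolitinib replicate 1. PSMB9, an immunoproteasome subunit, had 80.4 and 83.0 CPM with ruxolitinib and 50.2 and 47.8 CPM with DMSO (0.74 ± 0.06), and the peptide transporter TAP1 rose by 0.39 ± 0.06. Among NF-kB targets, 6 of 15 fell, but 2 without ruxolitinib replicate 1, and the adhesion molecule ICAM1 fell by 0.65 ± 0.14.

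Abundant noncoding and mitochondrial RNAs, whose levels can follow RNA quality, moved as well, and their part in the results above was not tested. Their counts are to be read against 12.5% of all tested genes higher and 13.2% lower. Of 7 such RNAs tested, 5 were higher with ruxolitinib, among them MALAT1 (0.56 ± 0.10) and RN7SL1 (0.35 ± 0.08), and 3 of them without DMSO replicate 1. Copies of RN7SL, part of the particle that targets secreted proteins, took 3.92 and 3.99% of counts with ruxolitinib and 3.05 and 3.36% with DMSO. Mitochondrially encoded RNAs took 2.88 and 2.77% with ruxolitinib and 2.18 and 2.29% with DMSO. All 13 protein genes of the mitochondrial genome were called higher (median 0.41), a count that was 1 by DESeq2 and 1 to 6 with a library left out. The rise of these 13 genes was not particular to ruxolitinib. Against the same DMSO libraries their median was 0.505 with fedratinib, 0.212 with momelotinib, 0.596 with pacritinib and 0.499 with itacitinib. The 2 rRNAs of the mitochondrial genome, MT-RNR1 (-0.55 ± 0.27) and MT-RNR2 (-0.11 ± 0.23), were not called with ruxolitinib. With fedratinib at 48 h, RN7SL took 4.67 and 4.42% of counts and globins 0.388 and 0.324%. With pacritinib they took 4.52 and 4.76% and 0.266 and 0.268%. With momelotinib the shares were 4.01 and 3.78% and 0.282 and 0.276%, and with itacitinib 3.97 and 3.1% and 0.305 and 0.293%. Any link between the RN7SL and globin shares was not tested.

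**Figure D4:**
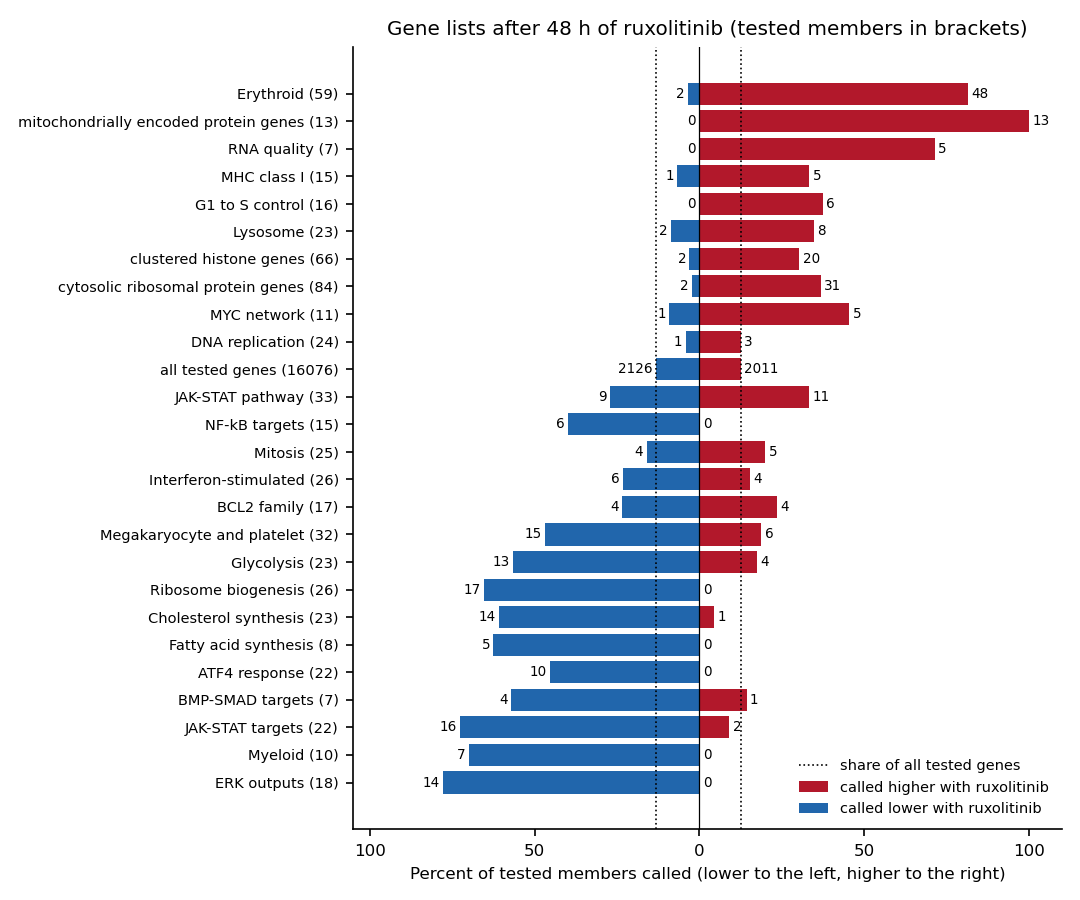
Bars give the percent of tested members of each list called higher (right, red) or lower (left, blue) with ruxolitinib at 48 h, with counts at the bar ends. Dotted lines mark the shares of all tested genes, 12.5% higher and 13.2% lower. Lists are ordered by their median log2 fold change, with erythroid genes at the top and ERK outputs at the bottom.

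The effect at 48 h was set against that at 4 h, where 1361 genes (8.47%) were called, to ask which changes were late. The difference between the 2 effects was called for 1402 genes (8.72%), of which 694 (4.32%) were more positive and 708 (4.40%) more negative at 48 h. Without ruxolitinib replicate 2 at 48 h, 909 were called. Of the genes called at 48 h, 872 were called at 4 h as well, 21.1% of the 48 h calls and 64.1% of the 4 h calls. The direction was the same for 836 of these and opposite for 36. The 2 comparisons have separate control libraries.

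Erythroid genes were mostly late. At 48 h, 48 of 59 were higher, and at 4 h 17 were higher and 1 lower, where 3.42% and 5.04% of all tested genes were, with medians of 0.49 at 48 h and 0.13 at 4 h. The effect was more positive at 48 h for 34 and more negative for 2, BCL11A and MYB. HBA2 changed by 2.26 at 48 h and by 0.27 at 4 h (difference 1.99 ± 0.14). ALAS2 changed by 1.90 at 48 h and 0.22 at 4 h (difference 1.69 ± 0.12), and PKLR by 1.95 at 48 h and 0.20 at 4 h (difference 1.75 ± 0.12). TFRC changed by 0.93 at 48 h and -0.06 at 4 h (difference 0.99 ± 0.07). For the rest of the 59 no difference between the times was called. SLC40A1 was among these, at 0.91 at 48 h and 0.72 at 4 h (difference 0.19 ± 0.07, adjusted p = 0.0633).

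JAK-STAT targets had split by 48 h. The effect was less negative at 48 h than at 4 h for CISH (-0.33 at 48 h and -1.76 at 4 h), PIM2 (-0.55 at 48 h and -2.09 at 4 h), PIM1 (-0.69 at 48 h and -1.69 at 4 h), SOCS3 (-1.69 at 48 h and -2.61 at 4 h) and ID1 (-1.35 at 48 h and -1.98 at 4 h). For CISH the difference was 1.44 ± 0.11 and for PIM2 1.54 ± 0.09. It was more negative at 48 h for the cyclins CCND1 (-5.34 at 48 h and -1.06 at 4 h) and CCND2 (-1.12 at 48 h and -0.30 at 4 h). The differences of IL21R, BCL3, SOCS1 and LIF were not called (adjusted p = 0.542 to 0.825), and these genes were low at both times. In all, 8 of 22 targets had a more positive and 2 a more negative effect at 48 h. Of the ERK outputs, DUSP6 (-3.37 at 48 h and -2.73 at 4 h) and EGR1 (-1.90 at 48 h and -2.40 at 4 h) did not differ by a call. ETV4 (-4.18 at 48 h and -0.47 at 4 h, difference -3.71 ± 0.21) and ETV5 (-3.18 at 48 h and -1.20 at 4 h, difference -1.98 ± 0.12) had far larger decreases at 48 h. JUN fell at 48 h and had risen at 4 h (-0.51 at 48 h and 0.32 at 4 h). In DMSO, JUN had 8.98 and 9.23 CPM at 48 h and 66.6 and 67.3 CPM at 4 h, so its ratios rest on unlike levels.

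**Figure D5:**
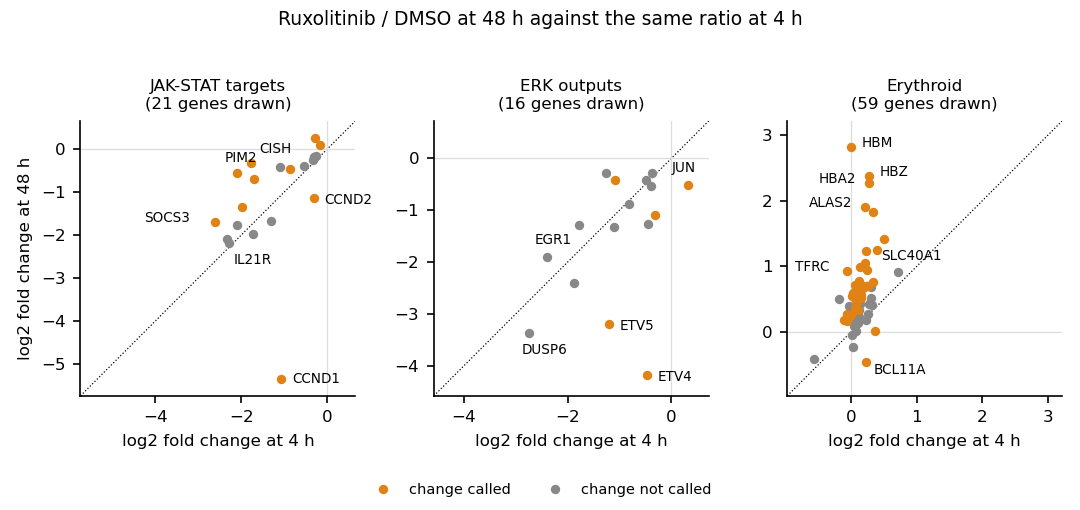
Each point is 1 gene, with the log2 fold change of ruxolitinib over DMSO at 48 h on the y axis and the same ratio at 4 h on the x axis. The dotted line marks equal effects, and orange points are genes whose 2 effects differed by a call. Of the JAK-STAT targets and ERK outputs, the 21 and 16 called at either time are drawn. CISH and PIM2 lie above the line, CCND1 and ETV4 far below it, and most erythroid genes above it.

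Ruxolitinib was last compared directly with momelotinib, another inhibitor of JAK1 and JAK2, at the same dose and time, where 3371 genes (21.0%) were called, 1648 higher (10.3%) and 1723 lower (10.7%) with ruxolitinib. Without momelotinib replicate 2 the number was 2173, and without ruxolitinib replicate 2 it was 2241. Erythroid genes were higher with ruxolitinib at 46 of 59 and lower at 2. HBA2 had 766 and 727 CPM with ruxolitinib and 231 and 225 CPM with momelotinib (1.71 ± 0.10). PKLR had 63.3 and 64.9 CPM with ruxolitinib and 19.2 and 19.1 CPM with momelotinib (1.74 ± 0.08). JAK-STAT targets were lower with ruxolitinib at 18 of 22 and higher at 2, and ERK outputs were lower at 14 of 18. ETV4 had 1.30 and 1.05 CPM with ruxolitinib and 13.3 and 12.4 CPM with momelotinib (-3.44 ± 0.17). LIF had 3.42 and 3.45 CPM with ruxolitinib and 25.0 and 20.7 CPM with momelotinib (-2.73 ± 0.15). Cholesterol genes were lower at 3 of 23 and higher at 3.

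Side by side against the same DMSO libraries, the median of the JAK-STAT targets was -0.50 with ruxolitinib, -0.02 with fedratinib, -0.01 with momelotinib, 0.03 with pacritinib and -0.10 with itacitinib. The median of the erythroid list was 0.49 with ruxolitinib, 0.11 with fedratinib, 0.03 with momelotinib, 0.10 with pacritinib and 0.02 with itacitinib. HBA2 changed by 2.26 with ruxolitinib, 1.31 with fedratinib, 0.55 with momelotinib, 0.47 with pacritinib and 0.37 with itacitinib. The median of the ATF4 list was -0.27 with ruxolitinib, 0.40 with fedratinib, -0.03 with momelotinib, 0.36 with pacritinib and -0.08 with itacitinib. These comparisons share their control libraries, and only the difference from momelotinib was tested here.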

How the data were processed

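HEL cells in 12 groups of 2 libraries were profiled by RNA sequencing. The deposited table holds whole-number counts per gene, not normalized. Reads were aligned with STAR 2.5.1a to GRCh38, per the submitters' processing notes, which also name edgeR and bcl2fastq. The counting tool and its use of strand are not stated in the sources used here. All 24 libraries were fitted in edgeR 4.0.16 (R 4.3.3, limma 3.58.1) with TMM scaling, filterByExpr (16076 of 34213 genes kept) and the quasi-likelihood test, 1 mean per group, with Benjamini-Hochberg adjustment over all tested genes and a threshold of 0.05. DESeq2 1.42.0 and other settings were alternatives, and the code was tested on simulated data. Standard errors are the log2 fold change divided by the square root of F. Named genes are the 15 most changed per direction among those whose groups do not overlap and whose mean log2 CPM is 3 or more, the 6 most changed per direction in the other comparisons, and list members, taken as those of largest change plus defining members. The members and lists were chosen with earlier results of these data known. TGFB1 and RN7SK were not analysed here. Some genes that count in the lists are not reported here by name. Replicate numbers were not used as a block.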

Additional observations from a re-analysis of the deposited data

Results flagged for a closer look

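The effect of ruxolitinib differed between the times for 1402 genes, by the test of the difference itself (edgeR's quasi-likelihood test, adjusted p under 0.05), and the genes named in the report that did so are given here. Each value in brackets is the log2 fold change at 48 h minus that at 4 h. Chance was not weighed beyond this test, and no cause of any difference was tested.

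Among globin genes the difference was positive for HBM (2.81), HBZ (2.09), HBA2 (1.99), HBA1 (1.49), HBQ1 (1.01), HBG2 (0.67) and HBE1 (0.34). In haem synthesis and iron handling it was positive for ALAS2 (1.69), ALAD (0.85), UROD (0.30), FECH (0.50), SLC25A37 (0.43) and TFRC (0.99). For the red cell membrane the genes were SPTB (0.85), ADD2 (0.84), EPB42 (0.69), GYPB (0.55), GYPE (0.47), KEL (0.46), RHD (0.41) and RHCE (0.41). Other red cell enzymes with a positive difference were PKLR (1.75), BLVRB (1.63) and CA1 (0.51). Of the lineage's transcription factors, LMO2 (0.55), ZFPM1 (0.52), TAL1 (0.28), GATA2 (0.22) and NFE2 (0.19) had a positive and BCL11A (-0.67) and MYB (-0.35) a negative difference.

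JAK-STAT targets with a positive difference were PIM2 (1.54), CISH (1.44), PIM1 (1.00), SOCS3 (0.91), ID1 (0.63), IRF1 (0.53), MYC (0.27) and the survival gene BCL2L1 (0.41). The killer genes BCL2L11 (0.25) and BNIP3L (0.27) of the BH3-only class had a positive difference too. The cyclins CCND1 (-4.28) and CCND2 (-0.82) had a negative one. In the pathway, EPOR (0.49), JAK2 (0.43), CSF2RB (0.43), STAT5B (0.30) and STAT5A (0.28) had a positive and KIT (-0.64) and CBL (-0.59) a negative difference. Of the ERK outputs, ETV4 (-3.71), ETV5 (-1.98), JUN (-0.83) and SPRY1 (-0.78) had a negative and FOSL1 (0.66) a positive one. The other ID genes, ID3 (-1.14) and ID2 (-0.74), had negative differences.

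Platelet genes split into TUBB1 (0.97) and GP9 (0.47) on the positive side and SELP (-0.98), GP6 (-0.86), THBS1 (-0.55) and MMRN1 (-0.39) on the negative side. Myeloid genes were on the negative side, with CTSG (-2.07), ITGAM (-0.75), CD33 (-0.56) and SPI1 (-0.47), as were markers of other cell types, CDH5 (-1.49), NKG7 (-1.11) and KRT18 (-0.94). Among cell cycle and MYC-related genes the values were E2F2 (0.34), RRM2 (0.30), MXD4 (0.82) and MYCN (-0.82). In metabolism they were PFKL (0.35), PKM (-0.26), ENO2 (-0.65), LDHA (-0.36), SCD (-0.51), SREBF1 (-0.41), DHCR7 (-0.51), INSIG1 (-0.52), PSAT1 (-0.40) and PHGDH (-0.57). Ribosome biogenesis and lysosome genes followed with RRP12 (-0.30), DDX21 (-0.25), CTSZ (0.39). Immune genes were PSMB9 (0.45) and TAP1 (0.28) with a positive and IFITM1 (-0.62), IFITM2 (-0.65) and IFITM3 (-0.64) with a negative difference.

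Of the other genes with the largest changes at 48 h, PGBD5 (1.30), FGFR3 (1.06), SHISA7 (1.06), STUM (0.99), ITLN2 (0.88) and ST8SIA1 (0.69) had a positive difference. A negative one was found for IGFBP4 (-2.37), SLC34A1 (-1.96), FLT4 (-1.48), SAMD14 (-1.35), UBASH3B (-1.17), PLCH1 (-1.16), EPAS1 (-1.08) and PPP1R16B (-0.61). The mitochondrial rRNAs MT-RNR1 (-3.10) and MT-RNR2 (-2.31) had large negative differences. Together they took 0.0604 and 0.0611% of counts with ruxolitinib and 0.0181 and 0.00715% with DMSO at 4 h, where the DMSO libraries were low.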

How the results depend on the processing

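Leaving out 1 library at a time gave 2733 to 3055 calls for ruxolitinib against DMSO at 48 h, with 1311 to 1426 higher and 1422 to 1629 lower. The change between the times had 909 to 1113 calls, 445 to 545 higher and 464 to 568 lower. Ruxolitinib against momelotinib had 2173 to 2433 calls, 1042 to 1138 higher and 1131 to 1295 lower. These fits assume that the lone library of an arm varies like the other groups. The other settings (DESeq2, other scaling, other filters and other sets of libraries) gave 3888 to 4810, 1404 to 1845 and 3262 to 4265 calls for the 3 comparisons, and the share of calls at 48 h that were higher lay between 45.6 and 51.6% over all settings.

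With the replicate number as a block, 4266, 1491 and 3517 genes were called. The numbers do not pair the libraries by the labels, and the deviations of same-numbered ruxolitinib and DMSO libraries had a correlation of -0.021 across genes. Over all 66 pairs of groups this correlation ran from -0.346 to 0.38, and 18 pairs were over 0.1. None of the 182 named genes reversed with a call in any of the 11 alternatives, and 147 of 162 called genes kept their call in all of them. MT-RNR1, not called in the report, was called with no low-count filter (adjusted p = 4.39e-25), in the fit on the groups compared (adjusted p = 3.5e-06) and on the 48 h libraries (adjusted p = 0.00116), and the cause was not tested. MCM2 (adjusted p = 0.0262) and BAK1 (adjusted p = 0.0276) were also called in the fit on the groups compared. With 2 libraries a group, small changes rest on a spread shared by all 12 groups, and genes under the count filter were not tested.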

Other observations

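Genes for the cytosolic ribosome and for histones changed by small amounts, and the counts here stand beside 12.5% of all tested genes higher and 13.2% lower. Of 84 tested genes for cytosolic ribosomal proteins, 31 rose and 2 fell with ruxolitinib at 48 h (median log2 fold change 0.10). Of 66 clustered histone genes, 20 rose and 2 fell (median 0.11), with the reservation that histone genes are similar in sequence. Histone genes took 1.90 and 1.95% of counts with ruxolitinib and 1.83 and 1.78% with DMSO. By kind of gene, 1922 of 14109 tested protein-coding genes rose and 2088 fell, and 49 of 1295 long noncoding genes rose and 26 fell.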
